A study of Mus musculus with 24 samples.

Results

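Type I interferon-stimulated genes were followed in mouse splenic B lymphocytes after loss of the gene for Spt5, a subunit of the DSIF complex, which travels with RNA polymerase II. The set comprised 44 genes taken by name, all 44 of which had a row among the 14106 genes of the count table. They were split by role into the 2 chains of the interferon receptor, 7 STAT and IRF transcription factors, 8 sensors of foreign nucleic acid and 27 effectors. The tested cells, called Spt5-depleted here, were Supt5hFl/- Rosa26ERT2-cre/+ B cells, and the controls, called WT, were Rosa26ERT2-cre/+ B cells. Both carried the tamoxifen-activated Cre at Rosa26, a locus active in most cell types, both were stimulated with IL4 and LPS, and both received 2 µM 4-hydroxytamoxifen. The drug was added after 28 h of activation and left for 32 h, which made 60 h of activation in all. The null Supt5h allele was in Spt5-depleted cells only, so its effects and those of the induced deletion cannot be told apart. Each group had 3 libraries of poly(A) RNA. Age, sex and strain of the mice are not in the labels, and neither is whether each library had its own mouse, so a p-value measures library-to-library spread that may be technical. Different label fields describe the cells as mature and as immature. The comparison asks how far loss of Spt5 reached these genes.

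Interferons alpha and beta bind a receptor of 2 chains, IFNAR1 and IFNAR2, whose kinases phosphorylate STAT proteins. The STATs join IRF9 in the complex ISGF3, which binds the interferon-stimulated response element, or ISRE, in the promoters of its targets. Many targets are themselves sensors, IRFs or antiviral effectors, so the response feeds back on itself. In B cells LPS and the nucleic acid receptors of the Toll-like family can start the response, and IRF3 and IRF7 are the factors that switch on the interferon genes.

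The Spt5-depleted libraries held 17306549 to 21441575 counts and the WT libraries 23340978 to 25649611. Supt5, the targeted gene, averaged 11.1 ± 2.26 CPM (CPM being read counts scaled to library size, here with TMM factors) in Spt5-depleted libraries and 170.5 ± 18.7 CPM in WT libraries (SD, n = 3 each; edgeR adjusted p = 1.26e-10). Among 8 B cell markers the summed level was 12854 to 15066 CPM in Spt5-depleted libraries and 12762 to 13538 CPM in WT libraries. For 6 of the 8 the difference did not pass. The groups also differed in sex-linked RNA. Xist had 1.00, 1.31 and 1.73 CPM in Spt5-depleted libraries and 625, 915 and 468 CPM in WT libraries, and the Y-linked gene Ddx3y had 2569 counts in Spt5-depleted libraries and 1 in WT libraries. Every difference below therefore also separates libraries with Y-linked mRNA from libraries with Xist RNA, and genotype and sex cannot be told apart. Of the 44 genes, 0 lie on X or Y in RefSeq.

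The interferon-stimulated genes did not move as a block. At an adjusted p under 0.05 in edgeR's quasi-likelihood test, Spt5-depleted cells had 16 of the 44 higher and 10 lower, and 18 did not pass. That is 59.1% of them called, against 62.4% of all 12024 genes tested. By direction, 31.8% of all tested genes were called higher and 30.6% lower. The share of the 44 that changed was thus near that of the table, and the same held for changes of at least 2-fold, with 18.2% of the 44 and 17.5% of all tested genes. Their median log2 fold change was 0.09, against 0.0047 over all tested genes, within a range of -1.44 to 1.95. The median depended on single libraries, and stood at 0.0386 without WT replicate 1 and 0.173 without Spt5-depleted replicate 1. Each Spt5-depleted library was also set against the WT mean, scaled by library totals rather than TMM factors. The medians of the 44 then had an SD of 0.141 over the 3 Spt5-depleted libraries, which leaves out the spread of WT. The 3 Spt5-depleted values did not overlap the 3 WT values for 25 of the 44 (56.8%, against 67.5% of all tested genes), of which 16 lay above and 9 below. Scaled by library totals alone, which raises the median of all genes to 0.16, 21 of the 44 were higher and 5 lower, and over all genes 64.8% of calls were rises, against 50.9% with TMM factors. The median of the 44 was then 0.253. DESeq2's size factors gave 15 higher and 10 lower, and upper-quartile factors 15 and 9, so among the scalings tried library totals alone stood apart. In the authors' deposited table, 16 of the 44 are higher and 11 lower at an adjusted p under 0.05.

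**Figure D1:**
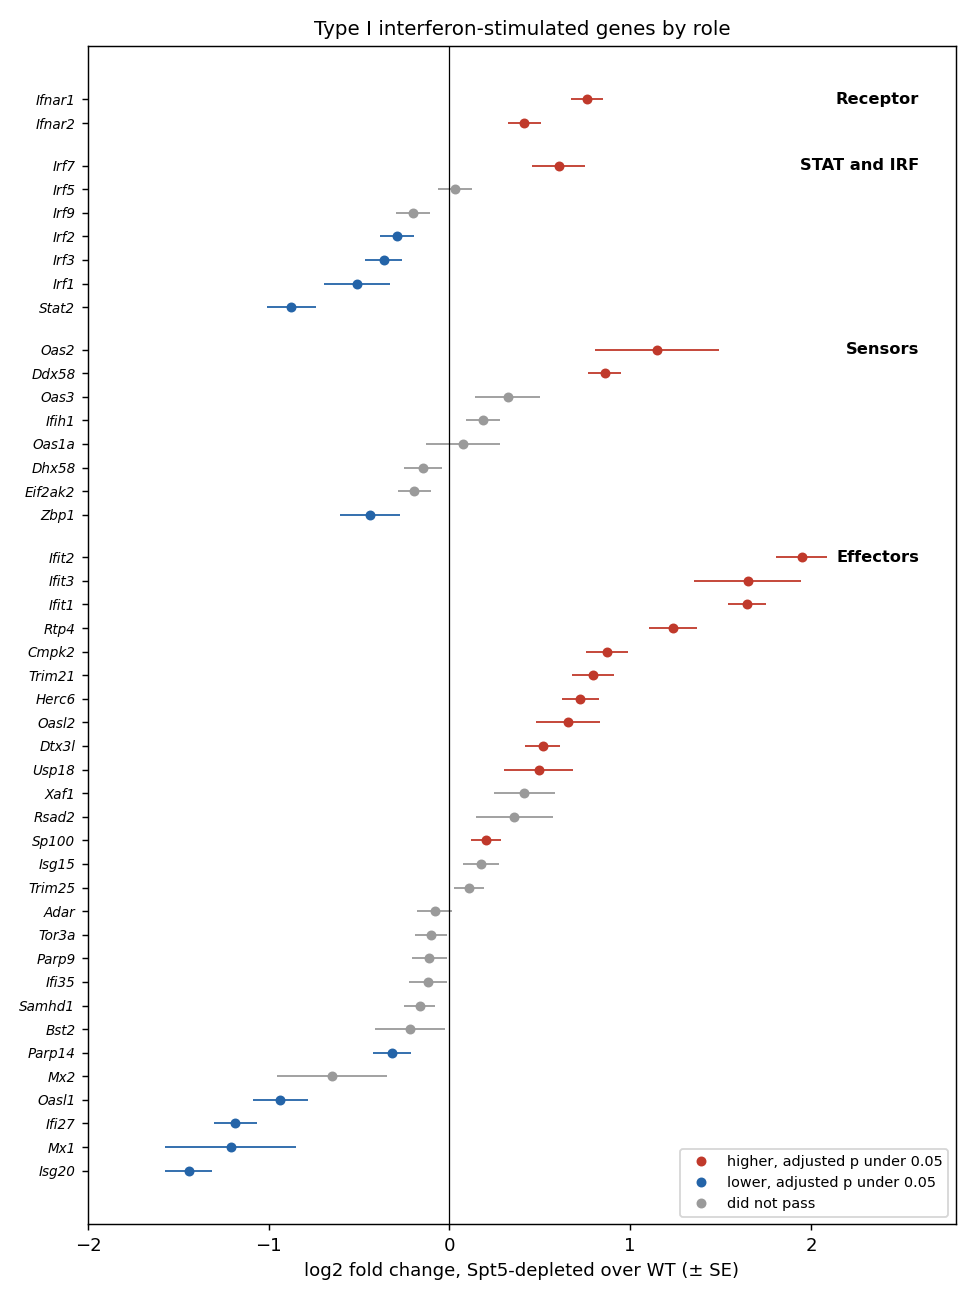
Log2 fold change of each of the 44 genes, Spt5-depleted over WT, with its standard error, grouped by role; colour marks genes higher, lower or not past an adjusted p of 0.05 (3 libraries per group). Both receptor chains lie to the right of 0, 4 of 7 STAT and IRF genes pass to the left, and the effectors run from -1.44 for Isg20 to 1.95 for Ifit2.

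Promoter sequences are shown because the ISRE is the element through which ISGF3 and several IRFs act on these genes. RefSeq windows of 300 bases, from 250 before to 50 after each start (build GRCm38.p6), were on hand for 33 of the 44 genes, with 41 windows in all. The ISRE core was searched on both strands as GAAA, any 2 bases and GAAA again, so it appears as paired TTTC where it reads against the gene, and neighbouring matches may overlap. It was found in 13 of the 41 windows (31.7%), against 3.44% of all 32851 RefSeq windows. The matched stretches follow, 5′ to 3′ on the strand of the gene, with the matches in capitals and 5 bases on either side.
Ifit1, chr19:34640780-34640818, plus strand: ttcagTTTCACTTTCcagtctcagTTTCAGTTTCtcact
Ifit3, chr19:34583368-34583421, plus strand: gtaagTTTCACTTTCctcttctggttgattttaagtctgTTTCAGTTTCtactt
Ddx58, chr4:40239809-40239828, minus strand: ggcagTTTCGATTTCctatg
Trim21, chr7:102565449-102565474, minus strand: gagagGAAACTGAAAGTGAAAtttgg
Stat2, chr10:128270271-128270290, plus strand: cctggTTTCAGTTTCctttc
Irf2, chr8:46739499-46739518, plus strand: gaagtGAAAATGAAAttgac
Isg15, chr4:156200870-156200901, minus strand: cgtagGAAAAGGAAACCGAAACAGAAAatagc
Bst2, chr8:71537582-71537607, minus strand: tccagGAAAATGAAACTGAAAggctg
Oas1a, chr5:120907525-120907550, minus strand: ctcggGAAATGGAAACTGAAAatcta
Oas3, chr5:120777720-120777739, minus strand: gaggaGAAAACGAAAgtgaa
Rsad2, chr12:26456558-26456577, minus strand: ccaacTTTCATTTTCagaaa
Ifih1, chr2:62646209-62646228, minus strand: gaatcGAAACAGAAAccgat
Eif2ak2, chr17:78882540-78882559, minus strand: gccggGAAAACGAAAcagaa

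The first 4 of these genes were higher in Spt5-depleted cells, Stat2 and Irf2 were lower, and the other 7 did not pass. Isg15, with 3 overlapping matches, was among the genes that did not pass, as were Bst2 and Oas1a, with 2 overlapping matches each. Trim21, also with 2 overlapping matches, and Ddx58, with 1, were higher. Ifit1 and Ifit3, with 2 spaced matches each, were among the 3 largest rises, and Ifit2, the largest, had no match. A relation between the number or spacing of matches and the call was not tested. Of the 20 genes with a window but no match, 9 were higher, 4 lower and 7 did not pass. The median log2 fold change was 0.19 for the 13 genes with a match and 0.15 for the 20 without. A second motif, the core of the gamma-activated site that STAT dimers bind, was searched as TTCNNNGAA and found in 12 of the 41 windows (29.3%), against 8.3% of all windows. Among those 12 genes 3 were higher, 3 lower and 6 did not pass, with a median log2 fold change of -0.14. Among the 21 genes with a window and no match 10 were higher, 3 lower and 8 did not pass, with a median of 0.36. The difference between these medians was not tested. These matches describe the letters of the windows, and binding was not analysed here.

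**Figure D2:**
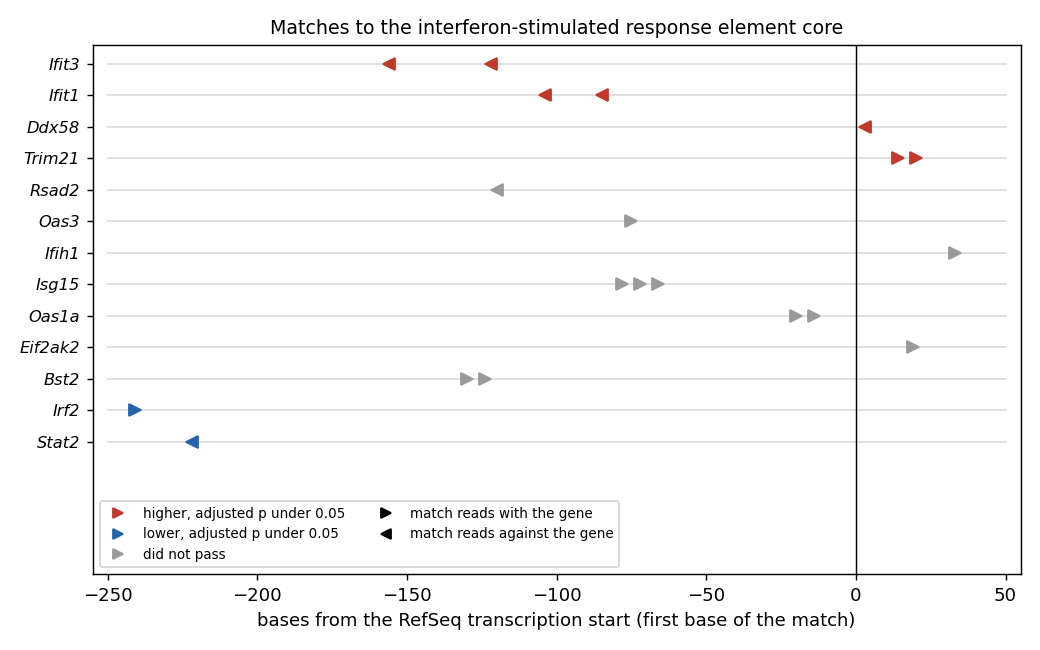
Position of each match to the ISRE core in the RefSeq windows of the 13 genes that hold one, in bases from the transcription start, ordered by log2 fold change from the highest (Ifit3) to the lowest (Stat2). Colour marks the call and the arrowhead the strand; matches of higher and of uncalled genes lie on both sides of the start, and the 2 farthest from it are those of the lower genes Irf2 and Stat2.

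Both receptor chains rose. Ifnar1, the chain that docks the kinase TYK2, had 149, 136 and 144 CPM in Spt5-depleted libraries and 89.9, 85.9 and 77.0 CPM in WT libraries. The groups lay far apart (log2 fold change 0.76 ± 0.09 SE, edgeR adjusted p = 3.60e-06). Ifnar2, which docks JAK1 and is the high-affinity chain, had 102, 90.8 and 95.7 CPM in Spt5-depleted libraries and 65.8, 75.4 and 74.8 CPM in WT libraries, again without overlap (0.42 ± 0.09 SE, adjusted p = 0.000965). Both calls held under each of the 15 alternatives tried, and in RefSeq 1 protein-coding gene lies between these 2 genes.

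Of the 7 STAT and IRF genes 4 fell, 1 rose and 2 did not pass (71.4% called, against 62.4% of all tested genes). Stat2, the subunit of ISGF3 that activates transcription, had 23.6, 27.1 and 29.2 CPM in Spt5-depleted libraries and 38.0, 54.4 and 54.4 CPM in WT libraries. Each Spt5-depleted value lay below each WT value (log2 fold change -0.87 ± 0.14 SE, edgeR adjusted p = 0.000113), under every alternative. Irf9, the DNA-binding subunit of the same complex, had 43.9, 48.4 and 45.5 CPM in Spt5-depleted libraries and 48.3, 57.1 and 53.3 CPM in WT libraries. The 2 ranges met by a narrow margin and the difference did not pass (-0.20 ± 0.09 SE, adjusted p = 0.0703), though it passed without WT replicate 1 (-0.27, adjusted p = 0.0227).

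Irf7, which amplifies interferon alpha production, was the IRF that rose. It had 78.3, 90.4 and 95.6 CPM in Spt5-depleted libraries and 43.4, 63.3 and 67.4 CPM in WT libraries. All 3 Spt5-depleted values were above the highest WT value (log2 fold change 0.60 ± 0.15 SE, edgeR adjusted p = 0.00452). Oasl1, an effector described further on, represses translation of Irf7 mRNA in mice. Its own mRNA went the other way, and a link between these changes was not tested.

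Irf3, the latent factor activated downstream of the sensors, had 22.8, 23.3 and 22.9 CPM in Spt5-depleted libraries and 28.2, 27.7 and 33.0 CPM in WT libraries. The difference was small and without overlap (log2 fold change -0.36 ± 0.10 SE, edgeR adjusted p = 0.00572), and did not pass with library totals alone (-0.21, adjusted p = 0.0936). Irf1, an activator that also answers interferon gamma, had 47.5, 67.7 and 60.5 CPM in Spt5-depleted libraries and 62.1, 94.1 and 94.9 CPM in WT libraries, with WT replicate 1 inside the Spt5-depleted range. Its call (-0.51 ± 0.18 SE, adjusted p = 0.0352) was lost when WT replicate 2 (adjusted p = 0.0689), WT replicate 3 (0.188), Spt5-depleted replicate 1 (0.0771) or Spt5-depleted replicate 3 (0.0677) was left out. Irf2, which competes with IRF1 for the same elements, had 68.6, 70.5 and 65.7 CPM in Spt5-depleted libraries and 74.1, 92.0 and 84.2 CPM in WT libraries. It fell by 0.29 on the log2 scale (adjusted p = 0.0151), but did not pass when WT replicate 2 (adjusted p = 0.0741) or Spt5-depleted replicate 3 (0.0695) was left out. Irf5, which acts below the Toll-like receptors, averaged 104 ± 8.06 CPM in Spt5-depleted libraries and 102 ± 9.32 CPM in WT libraries (SD, n = 3 each; adjusted p = 0.788). With library totals alone 1 of these 7 genes, Stat2, was lower and 1, Irf7, higher.

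Among the 8 sensors 2 rose, 1 fell and 5 did not pass (37.5% called, against 62.4% of all tested genes). Ddx58, which encodes the RNA helicase RIG-I, had 139, 145 and 149 CPM in Spt5-depleted libraries and 72.5, 86.7 and 80.1 CPM in WT libraries. The groups were well separated (log2 fold change 0.86 ± 0.09 SE, edgeR adjusted p = 1.27e-06). The other 2 helicases of its family had overlapping groups and did not pass. Ifih1, which encodes MDA5, averaged 84.5 ± 6.58 CPM in Spt5-depleted libraries and 74.2 ± 6.56 CPM in WT libraries (SD, n = 3 each; 0.19 ± 0.09 SE, adjusted p = 0.0996). Dhx58, which encodes LGP2, averaged 47.5 ± 1.59 CPM in Spt5-depleted libraries and 52.6 ± 7.60 CPM in WT libraries (-0.15 ± 0.11 SE, adjusted p = 0.242). Whether the response of Ddx58 differs from theirs was not tested, and Dhx58 passed as lower without WT replicate 1 (-0.26, adjusted p = 0.0285).

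The OAS enzymes make short oligoadenylates that activate RNase L when they bind double-stranded RNA. Oas2 had 12.0, 18.2 and 24.8 CPM in Spt5-depleted libraries and 4.93, 9.59 and 10.4 CPM in WT libraries. The libraries of each group were spread widely but did not overlap (log2 fold change 1.15 ± 0.34 SE, edgeR adjusted p = 0.0228), and without WT replicate 3 the call was lost (1.35, adjusted p = 0.0666). Its RefSeq neighbour Oas3 averaged 49.995 ± 7.33 CPM in Spt5-depleted libraries and 40.01 ± 10.1 CPM in WT libraries (SD, n = 3 each; adjusted p = 0.146), and passed as higher without WT replicate 3 (0.50, adjusted p = 0.0273). Oas1a averaged 23.0 ± 3.71 CPM in Spt5-depleted libraries and 21.8 ± 6.31 CPM in WT libraries (adjusted p = 0.765), and reads of Oas1a may be shared with its close paralogs. Eif2ak2, the kinase PKR that halts translation, had a log2 fold change of -0.20 (adjusted p = 0.0758), and passed without Spt5-depleted replicate 3 (-0.26, adjusted p = 0.042). Zbp1, a sensor of Z-form nucleic acid that can trigger necroptosis, had 175, 200 and 189 CPM in Spt5-depleted libraries and 185, 267 and 314 CPM in WT libraries. Its fall (-0.44 ± 0.17 SE, adjusted p = 0.0419) rested on overlapping groups. It did not pass under 10 of the 15 alternatives, among them leaving out any library but WT replicate 1, with adjusted p up to 0.175; without WT replicate 3 it stood at -0.27 (adjusted p = 0.123). With library totals alone 4 sensors were higher and 0 lower.

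Of the 27 effectors 11 rose, 5 fell and 11 did not pass (59.3% called, against 62.4% of all tested genes). They held the largest changes in both directions. The largest rises were those of the IFIT family, proteins that bind the ends of foreign RNA and block its translation. Ifit2 had 20.5, 28.4 and 28.8 CPM in Spt5-depleted libraries and 6.32, 7.0 and 6.83 CPM in WT libraries. Spt5-depleted replicate 1 was the lowest of its group and still well above all 3 WT libraries (log2 fold change 1.95 ± 0.14 SE, 3.86-fold, edgeR adjusted p = 3.05e-08). Ifit1 had 99.6, 107 and 112 CPM in Spt5-depleted libraries and 31.0, 31.5 and 39.2 CPM in WT libraries (1.65 ± 0.10 SE, 3.13-fold, adjusted p = 8.20e-09). Ifit3 was sparse, with 37, 98 and 69 counts in Spt5-depleted libraries and 22, 22 and 28 in WT libraries. Its groups did not overlap either (1.65 ± 0.29 SE, adjusted p = 0.000201). Ifit3 has a near-identical copy in the mouse genome, with which its reads may be shared. Ifit2 and Ifit3 are adjacent protein-coding genes in RefSeq and Ifit1 lies close by, with 3 protein-coding genes between it and Ifit3.

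The window of Ifit2 is shown beside those of the falls Isg20 and Oasl1, the largest changes each way with a window and no ISRE match in it. Capitals mark matches to the gamma-activated site core. Where RefSeq lists several starts the first listed is given, 1 of 2 for Ifit2 and 1 of 3 for Isg20.
Ifit2, chr19:34550444-34550743, plus strand: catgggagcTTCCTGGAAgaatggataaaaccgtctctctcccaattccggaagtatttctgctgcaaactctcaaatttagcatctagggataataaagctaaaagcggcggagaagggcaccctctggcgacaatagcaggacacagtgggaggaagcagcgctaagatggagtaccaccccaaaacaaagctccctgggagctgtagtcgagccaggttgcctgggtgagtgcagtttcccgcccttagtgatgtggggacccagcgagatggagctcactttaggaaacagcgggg
Isg20, chr7:78913174-78913473, plus strand: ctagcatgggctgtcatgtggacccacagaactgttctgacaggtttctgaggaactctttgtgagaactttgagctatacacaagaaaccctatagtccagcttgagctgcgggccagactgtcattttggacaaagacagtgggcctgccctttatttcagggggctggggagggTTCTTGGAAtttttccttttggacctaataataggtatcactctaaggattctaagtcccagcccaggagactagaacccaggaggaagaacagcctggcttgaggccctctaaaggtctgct
Oasl1, chr5:114922990-114923289, plus strand: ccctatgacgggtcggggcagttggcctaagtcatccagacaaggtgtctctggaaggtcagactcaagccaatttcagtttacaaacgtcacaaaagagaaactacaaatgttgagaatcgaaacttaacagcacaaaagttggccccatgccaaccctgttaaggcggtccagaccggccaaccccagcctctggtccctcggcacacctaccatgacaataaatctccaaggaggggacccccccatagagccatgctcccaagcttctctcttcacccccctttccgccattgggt
The first listed windows of Ifit2 and Isg20 hold 1 gamma-activated site core each, and that of Oasl1 holds neither motif.

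Effectors that act on nucleic acids and nucleotides went both ways. Isg20, an exonuclease that degrades single-stranded RNA, showed the largest fall of the 44 genes. It had 43.2, 47.3 and 48.3 CPM in Spt5-depleted libraries and 97.6, 142 and 138 CPM in WT libraries, so that the highest Spt5-depleted value was below the lowest WT value (log2 fold change -1.44 ± 0.13 SE, 2.72-fold lower, edgeR adjusted p = 8.79e-07). Cmpk2, a mitochondrial nucleotide kinase, had 26.9, 30.9 and 32.5 CPM in Spt5-depleted libraries and 14.2, 17.2 and 18.1 CPM in WT libraries (0.87 ± 0.12 SE, adjusted p = 1.48e-05). Its adjacent gene Rsad2 encodes viperin, which makes a chain-terminating nucleotide. Rsad2 averaged 10.97 ± 2.79 CPM in Spt5-depleted libraries and 8.62 ± 2.07 CPM in WT libraries (SD, n = 3 each; adjusted p = 0.165), and passed as higher without Spt5-depleted replicate 1 (0.55, adjusted p = 0.0224). Samhd1, which degrades deoxynucleotides, and Adar, which edits double-stranded RNA, did not pass (-0.17 and -0.08). A suffix on the row name of Adar may stand for an overlapping gene.

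In the ISG15 system, Isg15 itself, a ubiquitin-like modifier, averaged 65.4 ± 6.23 CPM in Spt5-depleted libraries and 57.9 ± 5.58 CPM in WT libraries (SD, n = 3 each; edgeR adjusted p = 0.142), and passed as higher with library totals alone (log2 fold change 0.34, adjusted p = 0.0115). Herc6, the ligase that attaches ISG15 in mice, had 60.1, 76.8 and 69.2 CPM in Spt5-depleted libraries and 38.5, 43.8 and 42.5 CPM in WT libraries. It rose clear of the WT range (log2 fold change 0.72 ± 0.10 SE, adjusted p = 2.42e-05). Usp18 removes ISG15 and damps signalling at IFNAR2. It averaged 34.1 ± 3.81 CPM in Spt5-depleted libraries and 24.2 ± 6.83 CPM in WT libraries, with 1 WT value above the lowest Spt5-depleted value (0.49 ± 0.19 SE, adjusted p = 0.046). The Usp18 call was lost when WT replicate 1 (0.28, adjusted p = 0.0518), Spt5-depleted replicate 2 (adjusted p = 0.0996) or Spt5-depleted replicate 3 (0.119) was left out. Trim25, the ubiquitin ligase that assists RIG-I, did not pass (0.11, adjusted p = 0.272), while Trim21, a cytosolic antibody receptor and ubiquitin ligase, rose. Trim21 had 20.5, 24.6 and 22.9 CPM in Spt5-depleted libraries and 11.7, 13.0 and 14.6 CPM in WT libraries (0.79 ± 0.12 SE, adjusted p = 3.60e-05).

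The adjacent OAS-like genes moved apart. Oasl2 had 48.1, 62.6 and 62.8 CPM in Spt5-depleted libraries and 26.9, 38.7 and 44.8 CPM in WT libraries, all 3 Spt5-depleted values above WT (log2 fold change 0.66 ± 0.18 SE, edgeR adjusted p = 0.00984). Oasl1 had 45.6, 49.6 and 56.6 CPM in Spt5-depleted libraries and 80.1, 88.2 and 122 CPM in WT libraries, all 3 below WT (-0.94 ± 0.15 SE, adjusted p = 0.000255). Dtx3l and its RefSeq neighbours Parp14 and Parp9 also differed in their calls. They encode ADP-ribosyltransferases and a ubiquitin ligase that pairs with PARP9. Dtx3l averaged 159 ± 11.4 CPM in Spt5-depleted libraries and 112 ± 12.8 CPM in WT libraries (SD, n = 3 each; 0.52 ± 0.10 SE, adjusted p = 0.000349). Parp14 had 110, 134 and 150 CPM in Spt5-depleted libraries and 161, 161 and 171 CPM in WT libraries (-0.32 ± 0.10 SE, adjusted p = 0.0154). With library totals alone the Parp14 call was lost (-0.16, adjusted p = 0.231), as it was when Spt5-depleted replicate 1 was left out (-0.21, adjusted p = 0.103). Parp9 did not pass (-0.11), and the rows of Parp9 and Dtx3l carry the suffix that may mark overlap, so reads could be exchanged between them.

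Mx1 and Mx2 encode dynamin-like GTPases that trap viral nucleocapsids, and many inbred mouse strains carry a disrupted Mx1. Mx1 was sparse, with 33, 73 and 108 counts in Spt5-depleted libraries and 109, 194 and 242 in WT libraries, or 1.84, 3.42 and 4.67 CPM in Spt5-depleted and 4.59, 8.82 and 9.96 CPM in WT libraries. The highest Spt5-depleted CPM exceeded the lowest WT CPM (log2 fold change -1.21 ± 0.36 SE, edgeR adjusted p = 0.018). Its call was lost when Spt5-depleted replicate 2 (adjusted p = 0.0518) or WT replicate 3 (0.0816) was left out. Mx2 had a log2 fold change of -0.65 ± 0.30 SE (adjusted p = 0.0897) and passed as lower without WT replicate 1 (-0.94, adjusted p = 0.000555).

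Among the remaining effectors, Rtp4, which binds replicating viral RNA, rose most. It had 119, 134 and 123 CPM in Spt5-depleted libraries and 41.4, 54.2 and 64.1 CPM in WT libraries, so the lowest Spt5-depleted value stood well above the highest WT value (log2 fold change 1.24 ± 0.13 SE, 2.36-fold, edgeR adjusted p = 5.00e-06). Ifi27, a small hydrophobic mitochondrial protein, had 29.8, 29.6 and 29.0 CPM in Spt5-depleted libraries and 56.0, 65.1 and 79.9 CPM in WT libraries. The Spt5-depleted libraries were nearly equal and all below WT (-1.18 ± 0.12 SE, adjusted p = 8.16e-07), and the Ifi27 row carries the overlap suffix. Sp100, a nuclear body protein, had 326, 327 and 319 CPM in Spt5-depleted libraries and 273, 301 and 272 CPM in WT libraries. Its small rise (0.20 ± 0.08 SE, adjusted p = 0.0445) did not pass under 9 of the 15 alternatives, among them leaving out any library but WT replicate 2, with adjusted p up to 0.131. Xaf1, which binds the apoptosis inhibitor XIAP, missed the threshold (0.42, adjusted p = 0.0512) and passed when WT replicate 2 (adjusted p = 0.0448) or WT replicate 3 (0.0164) was left out. Bst2, the tetherin that holds budding virions, had -0.22 (adjusted p = 0.353) and passed as lower without WT replicate 1 (-0.42, adjusted p = 0.00644). Ifi35, a partner of NMI, and Tor3a, an ATPase of the torsin family, did not pass (-0.12 and -0.10).

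**Figure D3:**
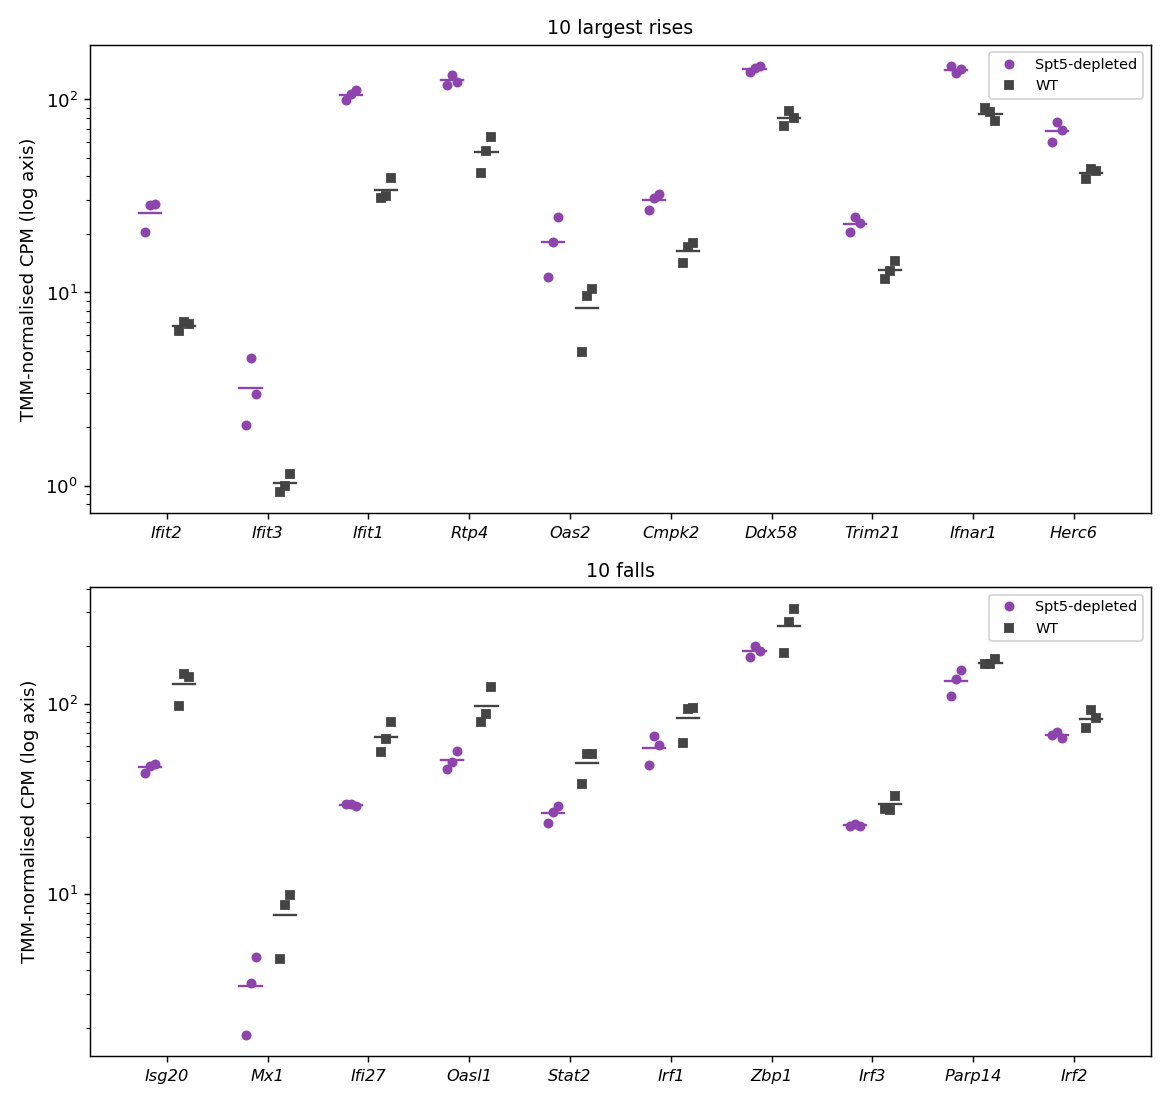
TMM-normalised CPM on a log axis for the 10 interferon-stimulated genes with the largest rises and the 10 that fell, with 1 point per library and a bar at the group mean (Spt5-depleted left, WT right, 3 libraries each). The groups are apart for all 10 rises, and overlap for Mx1, Irf1 and Zbp1 among the falls.

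Within each group replicate 1 was the lowest library for most of the interferon-stimulated genes. Spt5-depleted replicate 1 had the lowest CPM of its group for 33 of the 44 genes (75.0%), against 32.8% of all tested genes. WT replicate 1 was the lowest of its group for 37 of the 44 (84.1%), against 36.0% of all tested genes, and WT replicate 3 the highest for 29 (65.9%, against 37.9%). In the Spt5-depleted group the highest value was divided between replicate 2, with 18 genes, and replicate 3, with 21. Relative to the mean of its own group, the median of the 44 genes on the log2(CPM + 0.1) scale was -0.12 in Spt5-depleted replicate 1 and -0.17 in WT replicate 1, and 0.16 in WT replicate 3. Sensors varied most in WT, with a median SD between libraries of 0.30 on that scale, against 0.15 over all tested genes. The receptor chains did not follow this order, as Spt5-depleted replicate 1 held the highest value of its group for both. Libraries with the same number are not shown to be paired by this, and genes of one library are not independent replicates.

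**Figure D4:**
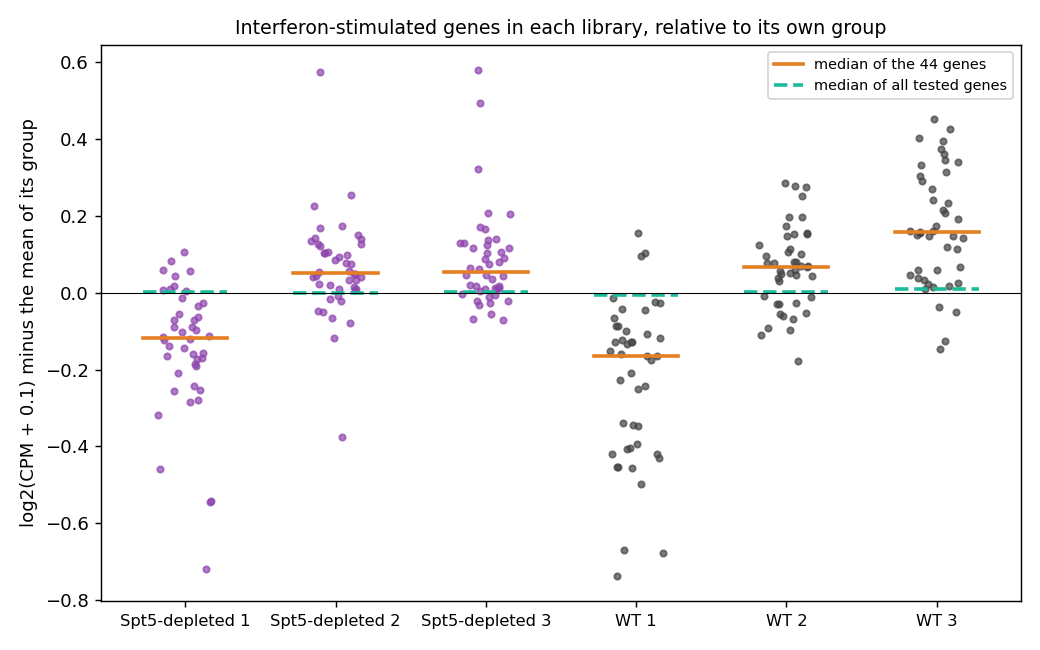
Each point is 1 of the 44 genes in 1 library, as log2(CPM + 0.1) minus the mean of that library's own group; the solid bar is the median of the 44 genes and the dashed bar the median of all tested genes. The solid bar lies at -0.12 in Spt5-depleted replicate 1 and -0.17 in WT replicate 1, while the dashed bars stay near 0.

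Markers of other cells that make or answer interferon were read beside these results, and in bulk RNA fewer cells of a type and less RNA per cell cannot be told apart. Of 8 macrophage and monocyte markers 7 had a row, with a summed level of 32.3 to 66.8 CPM in Spt5-depleted libraries and 31.0 to 53.7 CPM in WT libraries. Of 6 tested, 3 were higher (Csf1r, Cd14 and Itgam) and 0 lower, where 31.8% of all tested genes were higher. The groups were apart for Cd14 and overlapped for Itgam and for Csf1r, whose row carries the overlap suffix. The lowest sum of each group was that of its replicate 1, the library that was also lowest for most of the 44 genes. The same held for the sums of the plasmacytoid dendritic and NK cell lists given below, but not for the other lists. For the T cell and neutrophil lists WT replicate 3 was the lowest of WT. For the dendritic and B cell lists Spt5-depleted replicate 1 had the highest sum of its group. Lyz2 had 6.64 CPM in Spt5-depleted replicate 1, against 22.8 and 14.8 CPM in the other Spt5-depleted libraries and 6.53, 7.09 and 5.60 CPM in WT libraries. Plasmacytoid dendritic cells are a main source of interferon alpha. Of their 6 listed markers 3 had a row, with a sum of 5.25 to 8.05 CPM in Spt5-depleted libraries and 11.6 to 14.3 CPM in WT libraries. The defining marker Siglech was not among those 3. Most of the gap came from Cox6a2, on a row with the overlap suffix (mean 0.93 CPM in Spt5-depleted and 5.96 CPM in WT libraries). Pacsin1 was also lower, and Ccr9 did not pass. The T cell list summed to 19.2 to 41.1 CPM in Spt5-depleted libraries and 45.1 to 46.4 CPM in WT libraries. Of its 8 genes 1 was called, Lck, which was lower and has the overlap suffix on its row. Lck averaged 14.4 CPM in Spt5-depleted libraries and 26.8 CPM in WT libraries, the largest part of the WT sum. The NK cell list summed to 6.42 to 12.4 CPM in Spt5-depleted libraries and 10.9 to 17.1 CPM in WT libraries. Of its 3 tested genes Eomes was higher, Gzma was lower and Nkg7 did not pass. The neutrophil list summed to 0.558 to 3.79 CPM in Spt5-depleted libraries and 0.288 to 0.954 CPM in WT libraries. Its 1 tested gene, S100a8, did not pass. For dendritic cells 2 of 4 tested markers were higher and 1 lower, where 62.4% of all tested genes were called. The sums were 98.1 to 99.7 CPM in Spt5-depleted libraries and 95.7 to 112.9 CPM in WT libraries. Most of each sum was Flt3, which did not pass (mean 82.1 CPM in Spt5-depleted and 86.7 CPM in WT libraries). Xcr1 (5.98 and 0.88 CPM) and Zbtb46 (8.22 and 5.22 CPM) were higher, and Batf3 (2.26 and 13.0 CPM) was lower. The part of other cells in the changes of interferon-stimulated genes was not tested.

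Genes of the pathway outside the 44 were read from a list of 62, of which 56 had a row and 52 were tested. Of these 21 were higher and 13 lower, a share of 65.4% called, near the 62.4% over all tested genes. Among ligands 1 of 6 had a row here. Ifnk, which encodes interferon kappa, had 9, 7 and 15 counts in Spt5-depleted libraries and 2, 7 and 2 in WT libraries, too few to test. Of 14 tested genes that induce interferon, 4 were higher and 3 lower. Tlr3, the endosomal receptor for double-stranded RNA, had 13.2, 16.95 and 14.9 CPM in Spt5-depleted libraries and 3.2, 2.73 and 3.21 CPM in WT libraries (log2 fold change 2.30 ± 0.15 SE, edgeR adjusted p = 1.10e-08). Tlr7, the X-linked receptor for single-stranded RNA, had 134, 145 and 142 CPM in Spt5-depleted libraries and 293, 327 and 241 CPM in WT libraries (-1.03 ± 0.11 SE, adjusted p = 1.08e-06). The groups were apart for both, in opposite directions.

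Of 9 signalling genes 6 were higher and 2 lower (88.9% called, against 62.4% of all tested genes). Jak1, the kinase docked on IFNAR2, averaged 589 ± 10.48 CPM in Spt5-depleted libraries and 345 ± 23.1 CPM in WT libraries (SD, n = 3 each; log2 fold change 0.77, edgeR adjusted p = 2.03e-06), on a row with the overlap suffix. Socs1, a feedback inhibitor of the receptor kinases, averaged 15.8 ± 0.757 CPM in Spt5-depleted libraries and 6.72 ± 1.03 CPM in WT libraries (1.24, adjusted p = 1.77e-06). Ptpn6, a phosphatase that restrains such signals, averaged 146 ± 2.70 CPM in Spt5-depleted libraries and 264 ± 23.5 CPM in WT libraries (-0.86, adjusted p = 1.10e-06). Both the kinase and its inhibitor were higher, and the phosphatase was lower, in all 3 Spt5-depleted libraries. Of 29 tested further interferon-stimulated genes 11 were higher and 8 lower. Trex1, which degrades cytosolic DNA, had 137, 138 and 138 CPM in Spt5-depleted libraries and 31.0, 36.8 and 47.6 CPM in WT libraries (1.84 ± 0.13 SE, adjusted p = 6.74e-08). Mlkl, the executioner of necroptosis, averaged 23.2 ± 2.61 CPM in Spt5-depleted libraries and 61.6 ± 10.9 CPM in WT libraries (-1.40, adjusted p = 6.77e-07). Ifi204, a DNA-binding protein, averaged 26.4 ± 3.36 CPM in Spt5-depleted libraries and 44.4 ± 4.77 CPM in WT libraries (-0.75, adjusted p = 4.54e-05).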

How the data were processed

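RNA-seq counts of 3 Spt5-depleted and 3 WT libraries were analysed; the 18 samples of other assays were not analysed here. Per the labels' protocols, RNA was extracted with Trizol and poly(A) libraries were made with a Lexogen SENSE kit. The tools in the submitters' processing notes are TopHat, featureCounts 1.5.0-p1, Bowtie2 2.1.0, DESeq2 1.10.1 and cutadapt 1.10, with build mm9; annotation, strand setting and handling of multi-mapping reads: not given in the sources used here. What the authors deposited is a table of raw counts per gene, at least 10 in total in each row, with the authors' log2 fold change and adjusted p-value, used only where named. The suffix that may mark overlap is on 2005 rows.

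In R 4.3.3, genes passing edgeR's filterByExpr (12024, all 44 members among them) received TMM factors (on the premise of a mostly stable transcriptome, with no spike-in used) and were compared with edgeR 4.0.16's quasi-likelihood F test (robust, two-sided; Benjamini-Hochberg over all tested genes). The premise of a mostly stable transcriptome was not tested, and 62.4% of tested genes were called. Without a spike-in, rises and falls are relative to the rest of the poly(A) RNA. Standard errors came from the F statistic. The common biological coefficient of variation was 0.098. No 2 libraries of a group agreed within sampling noise. Chi-square per degree of freedom was 6.13 to 10.2 for pairs of Spt5-depleted libraries and 26.4 to 31.2 for pairs of WT libraries. Every member is accounted for; per-library values are given for the 10 largest rises, the falls (10 in all), Ifnar1, Ifnar2, Stat2, Irf9 and Irf7, and for Oasl2 and Sp100, which were picked after their values were seen. Of pathway genes outside the members, the 4 rises and 4 falls with the smallest p and a mean of at least 5 CPM are named. The members and lists were chosen with earlier results of these data known. Promoter windows are RefSeq's, of build GRCm38.p6, matched by symbol, and were not joined to the mm9 counts by position. Alternatives were DESeq2 1.42.0, limma-voom (limma 3.58.1), other scalings and filters, a stricter threshold, a replicate block and leaving out each library. Lists of B cell, macrophage and monocyte, dendritic, plasmacytoid dendritic, T, NK and neutrophil markers were read as levels. Calls of their tested genes came from the same F test.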

Additional observations from a re-analysis of the deposited data

How the results depend on the processing

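Of the 16 higher members 13 kept their call under all 15 alternatives run for them, and 4 of the 10 lower ones (Stat2, Isg20, Ifi27 and Oasl1); Ifit3 has no value under the 5 CPM minimum. The other 9 lost it in at least 1, 11 of the 18 uncalled members passed in at least 1, and 0 called members changed sign. With library totals alone the lower members numbered 5 and the median of the 44 was 0.253, while the median of all genes was 0.16. At an adjusted p under 0.01 the lower members numbered 5, by construction of the stricter threshold. Leaving out single libraries gave 14 to 17 higher and 7 to 14 lower members, a median of 0.0386 to 0.173, 6717 to 7447 genes called over the table (3431 to 3784 higher, 3281 to 3678 lower), 18 to 22 higher and 11 to 15 lower pathway genes, and -4.11 to -3.81 for Supt5. Same-numbered libraries are not said to be paired, and their deviations from the group means correlated at 0.0384, -0.0403 and -0.00504; a replicate block gave 18 higher and 11 lower members and 7369 called genes. Depth limits Ifit3 and Mx1, with at most 98 and 242 counts per library.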
